A study of Rattus norvegicus and Heterocephalus glaber with 6 samples.

Results

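The cytosolic ribosome is built from a set of ribosomal proteins around ribosomal RNA, and the genes of that set were examined here in liver after low oxygen. The rows were chosen by name: every row whose identifier begins with Rpl, Rps or Rplp and a number, in either case, leaving out the S6 kinases (names beginning with Rps6k). This gave 87 of the 23283 rows held by the naked mole rat and rat tables together. Each naked mole rat table held 4 such rows of 734, and each rat table held 83 of 22549, with 82 symbols because Rpl32 names 2 rows. Of the 83 rat rows, 76 were main forms (the plain name, with at most an a or x after the number), 5 were paralogs whose names end in l or l1, and 2 were other matches, Rps4y2 and Rps19bp1. All 4 naked mole rat rows were main forms.

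Naked mole rats, a burrowing rodent that tolerates low oxygen, and laboratory rats were held in 8% oxygen for 8 hours, and polyadenylated RNA of frozen liver was sequenced with 3 libraries per species. The labels give no strain, age or sex, and do not say that each library came from a different animal, so the spread between libraries may in part be technical. Wherever rats or naked mole rats are numbered, counted or set against each other below, libraries are meant. Libraries of animals in normal air were not analysed here, so no effect of oxygen was measured, and all libraries shared the exposure. Values are FPKM, fragment counts scaled to transcript length and to the mapped fragments of the library. Of 12 hepatocyte markers, 11 were in the rat tables, each at a mean of at least 100 FPKM or, for albumin, with a single usable value. Only 1 of the 12, APOH, was in the naked mole rat tables, at 57.9, 34.7 and 51.7 FPKM, so those tables could not be checked against the labelled tissue beyond that gene. FPKM totals were 17543 to 21793 in the naked mole rat tables and 527133 to 557187 in the rat tables. The absolute depth is unknown. Judged by the common step between low values, the ratio of depths was 1.05 for rat 1 over rat 2 and 0.983 for rat 1 over rat 3.

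Ribosomal protein genes (Rps for the small subunit, Rpl for the large, Rplp for the acidic stalk) are among the most highly transcribed genes of most cells, and each protein is present about once per ribosome. Their mRNAs typically begin with a C followed by a run of pyrimidines, the terminal oligopyrimidine (TOP) start. Through it the kinase mTOR and the RNA-binding protein Larp1 control their translation, which is known to be held back when oxygen or nutrients are short. The genome carries many processed copies of these genes, and near-identical copies can split reads, so every level below is uncertain to that extent.

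The TOP start was looked for in the RefSeq promoter windows of the rat (build GRCr8; 250 bases before the gene start and 50 from it on), which were matched to 67 of the 82 symbols. Over all windows, the start base was the outermost base of the RefSeq gene in 57.8%, so an annotated start is uncertain by some bases or more. Of 60 main forms with a window, 32 began with C (53.3%), against 24.2% of all 27457 genes with a window, and 23 began with C followed by at least 4 further pyrimidines (38.3%, against 2.63%). With a start allowed anywhere within 10 bases of the annotated base, the count was 46 of 60 (76.7%, against 28.8%). Of 66 mitochondrial ribosomal proteins, 2 had the pattern at the annotated base (3.03%) and 25 within 10 bases (37.9%). None of the 7 paralogs and other matches with a window had it there, and 4 of the 7 had it within 10 bases. The windows below run from 35 bases before the start to 15 bases from it on, in GRCr8 and written 5′ to 3′, with the pyrimidine run at the start base in capitals. Rpl31 shows the C-led pattern, and Rps23 a long run led by T. Rpl41 and Rpl21, the rows of highest level in rat liver, show none at the annotated base.
Rpl31, chr9:49143076-49143125, plus strand: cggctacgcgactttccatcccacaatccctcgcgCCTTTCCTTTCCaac
Rps23, chr2:23814482-23814531, plus strand: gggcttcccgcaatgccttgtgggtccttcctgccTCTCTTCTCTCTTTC
Rpl41, chr7:1563483-1563532, minus strand: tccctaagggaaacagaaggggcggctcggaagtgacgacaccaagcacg
Rpl21, chr12:13386139-13386188, minus strand: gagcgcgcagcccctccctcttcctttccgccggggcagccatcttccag

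Letters of factor binding motifs were also counted over the whole window on both strands. CCGGAAG, the core bound by ETS family factors, or its reverse complement was in 20 of 60 main-form windows (33.3%, against 9.22% of all genes), and in 21 of 66 windows of mitochondrial ribosomal proteins (31.8%). AAGATGG, a core bound by YY1, was in 10 of 60 (16.7%, against 7.30%) and in 17 of 66 mitochondrial windows (25.8%), and TATAAA, the TATA box, in 5 of 60 (8.33%, against 14.3%). These are matches of letters and say nothing of binding. Among main forms whose row lies on the chromosome of its RefSeq gene, the 20 with the TOP pattern at the annotated base had a median of 316 FPKM (77.0 to 549), and the 34 without it a median of 246 FPKM (73.8 to 871), with wide overlap.

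**Figure D1:**
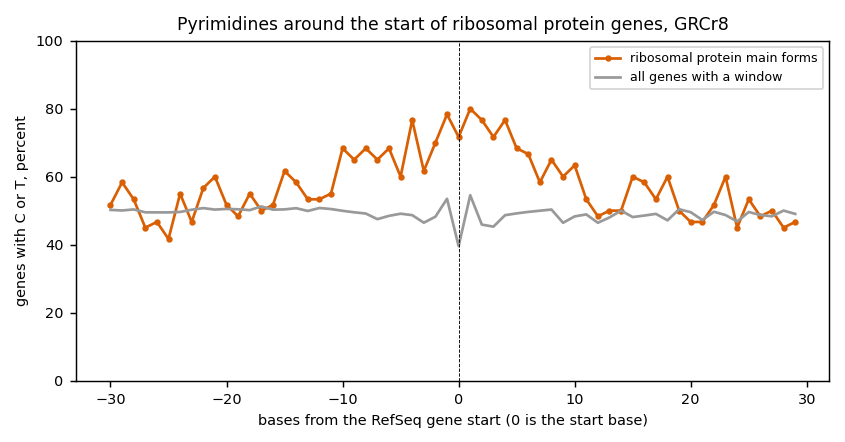
Share of genes with C or T at each base around the RefSeq start in GRCr8, in percent, for the 60 ribosomal protein main forms (orange) and all 27457 genes with a window (grey). At the start base the share was 71.7% in main forms and 39.6% in all genes.

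Ribosomal protein mRNAs were abundant in rat liver. Of the 83 rows, 64 (77.1%) had a mean of at least 100 FPKM, against 2.94% of all 22548 rat rows with 3 values, and the median row stood at 229 FPKM against 0.448 FPKM. The 73 mitochondrial ribosomal protein rows, whose products serve the separate ribosome of the organelle, had a median of 17.8 FPKM, and 0 of them reached 100 FPKM. In whole liver, fewer cells of a type and less RNA per cell cannot be told apart as sources of a lower level. The members together held 3.99%, 3.80% and 3.87% of the FPKM total in rat 1, rat 2 and rat 3 (3.89% ± 0.0991, SD, n = 3). The rat 1 and rat 2 totals lack albumin, whose row carries there a status for too many fragments to estimate. With albumin left out of every total the shares were 3.99%, 3.80% and 4.06%, and rat 2 was again the lowest. Mitochondrial ribosomal proteins held 0.279% ± 0.0104 (SD, n = 3).

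**Figure D2:**
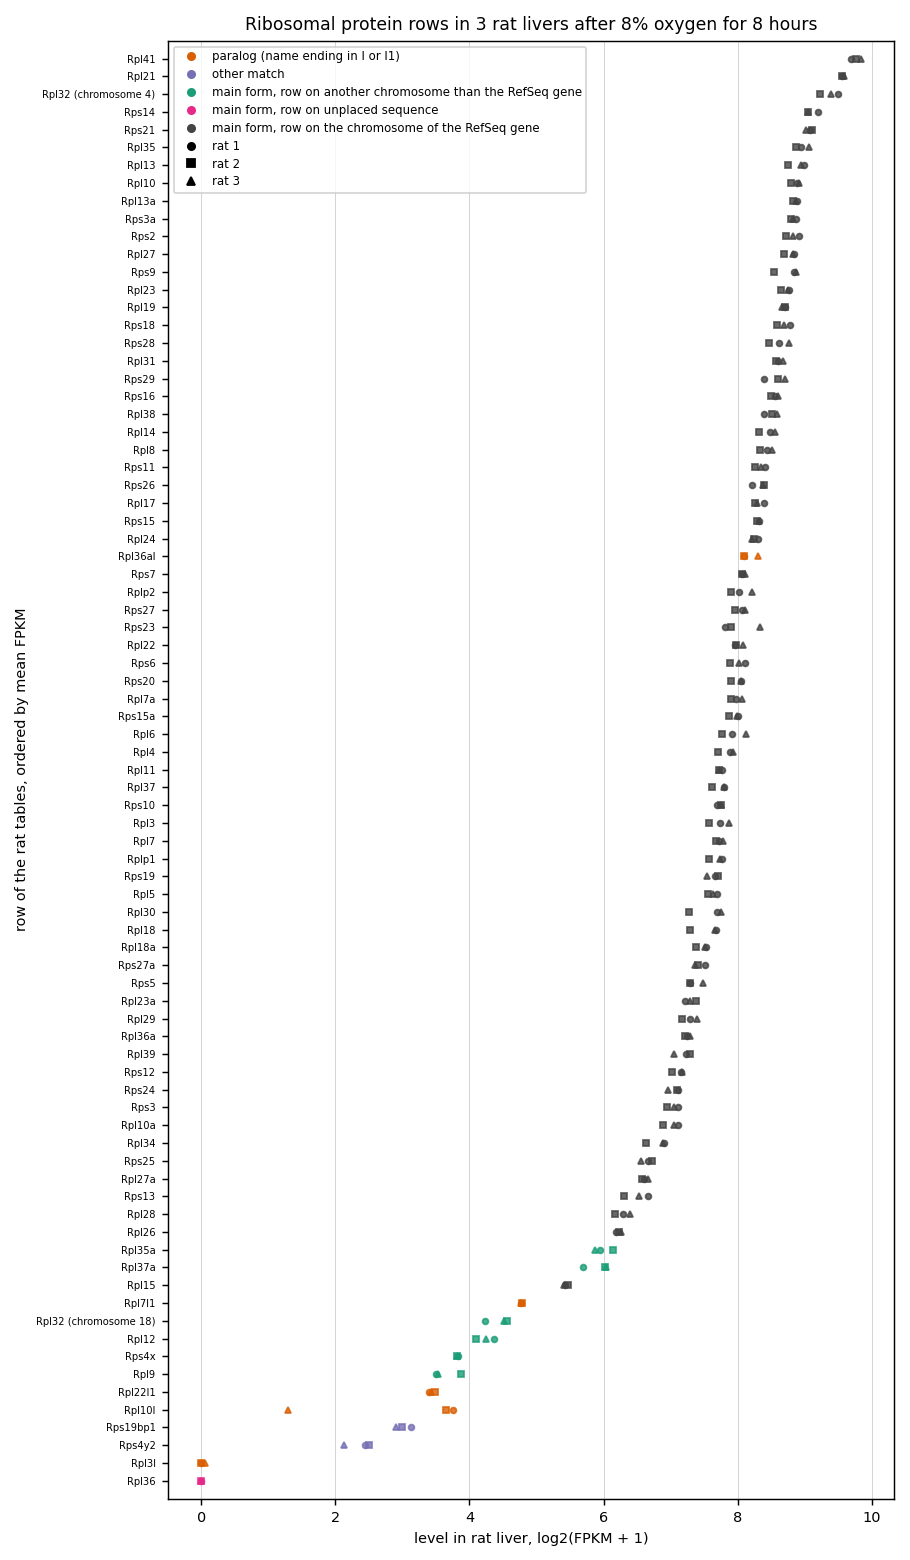
Level of 81 of the 83 ribosomal protein rows in the 3 rat liver libraries, as log2(FPKM + 1) on the horizontal axis, ordered by mean FPKM. Symbols mark the rats and colours the kind of row. Main forms on the chromosome of their RefSeq gene (grey) run from 42.4 to 871 FPKM, while most paralogs (orange) and rows on another chromosome (green) lie at the low end.

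Levels differed widely among the main forms, although the ribosome holds most of their proteins in equal number. Over the 69 main-form rows on the chromosome of their RefSeq gene, the highest mean was 20.5 times the lowest, and the third quartile (394 FPKM) was 2.22 times the first (177 FPKM). Small-subunit rows had a median of 270 FPKM (29 rows, 89.8 to 549) and large-subunit rows 237 FPKM (40 rows, 42.4 to 871), ranges that overlap. Between libraries the same rows varied little, with a median coefficient of variation of 5.94% (1.10% to 20.3%). The differences between the extremes of the level range were thus far larger than the spread between libraries.

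At the top stood Rpl41, the shortest protein of the ribosome, with 823, 872 and 920 FPKM in rat 1, rat 2 and rat 3. Rpl21, of the large subunit, followed with 754, 749 and 766 FPKM. The 3 values of Rpl41 lay above the 3 of Rpl21. The Rpl32 row on chromosome 4 (151941598 to 151945012, in the coordinates of the deposited tables) had 723, 601 and 670 FPKM, all below those of Rpl21. Rps14, a small-subunit protein whose loss underlies the anaemia of a human chromosome deletion, averaged 549 ± 33.0 FPKM (SD, n = 3). Rps21 averaged 537 ± 16.0 FPKM and Rpl35, at the exit of the peptide tunnel, 497 ± 32.9 FPKM. Rpl13 (476 ± 42.2 FPKM), Rpl10, a late-joining protein of the large subunit (466 ± 18.3 FPKM), and Rpl13a (463 ± 10.3 FPKM) were also among the 10 highest. From Rps14 down, neighbours among the genes named here overlapped between rats.

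Rps6, the target of the S6 kinases downstream of mTOR, had 275, 235 and 258 FPKM. Rpl5 and Rpl11, which bind Mdm2 when ribosome assembly fails, had 206, 187 and 197 FPKM and 218, 210 and 211 FPKM. Each value of Rpl11 exceeded each value of Rpl5, and all values of Rps6 exceeded those of Rpl11. Of the stalk proteins that recruit translation factors, Rplp2 had 258, 238 and 296 FPKM and Rplp1 217, 190 and 212 FPKM, without overlap.

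A group of main-form rows was low in every rat and lay on another chromosome than the RefSeq gene of the same name. These were 6 rows of 138 to 894 bp, with means of 11.5 to 62.6 FPKM and a median of 19.4 FPKM, none reaching 100 FPKM. The 69 rows on the same chromosome spanned 992 to 19389 bp (median 2874 bp) and had a median of 256 FPKM, and 63 of them reached 100 FPKM. A single row of the 69, Rpl15 at 42.4 ± 0.987 FPKM (SD, n = 3), was below the highest of the 6. The builds of the deposited tables and of RefSeq differ, so the chromosome alone was compared.

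By value, Rpl9 (deposited locus chromosome 1, 76274246 to 76274951) had 10.4, 13.6 and 10.6 FPKM in rat 1, rat 2 and rat 3. Rps4x, the X-linked form of S4 in mammals, on chromosome 4 in the deposited tables (34793682 to 34794576), had 13.2, 13.1 and 13.1 FPKM. Rpl12 on chromosome 8 (83157832 to 83158330) had 19.7, 16.2 and 18.0 FPKM. Rpl9 and Rps4x overlapped between rats, and Rpl12 lay above both in each rat. The other row named Rpl32, on chromosome 18 (33917346 to 33917484), had 17.9, 22.6 and 21.9 FPKM, against 601 to 723 FPKM for the Rpl32 row on chromosome 4. Rpl37a (chromosome 5, 146450566 to 146450928) had 50.6, 63.8 and 64.6 FPKM, and Rpl35a (chromosome 12, 6574160 to 6574576), a Diamond-Blackfan anaemia gene in humans, 60.7, 69.6 and 57.4 FPKM. The values of Rpl37a and Rpl35a overlapped. Rpl36, on unplaced sequence in the deposited tables, was listed at 0 in all 3 rats, as were all 831 rat rows outside the assembled chromosomes. For all of these symbols the levels are those of the deposited row and not of the RefSeq locus. The RefSeq starts of these genes, on the chromosome that RefSeq gives and not at the deposited rows, read as follows, with the pyrimidine run at the start base in capitals. RefSeq windows of Rpl9, Rpl35a and Rpl37a begin with C and at least 4 more pyrimidines.
Rpl9, chr14:43247555-43247604, plus strand: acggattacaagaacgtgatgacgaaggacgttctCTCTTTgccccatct
Rpl12, chr3:36661905-36661954, plus strand: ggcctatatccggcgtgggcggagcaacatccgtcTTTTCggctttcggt
Rpl35a, chr11:81235007-81235056, minus strand: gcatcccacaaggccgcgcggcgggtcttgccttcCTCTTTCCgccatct
Rpl37a, chr9:81748056-81748105, plus strand: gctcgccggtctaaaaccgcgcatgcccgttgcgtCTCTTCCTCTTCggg
Rps4x, chrX:71342907-71342956, minus strand: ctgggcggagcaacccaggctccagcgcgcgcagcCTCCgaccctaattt
Rpl36, chr9:1533745-1533794, plus strand: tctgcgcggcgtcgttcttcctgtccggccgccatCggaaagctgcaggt

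Of the other low main forms, Rpl26 had 73.8 ± 1.69 FPKM and Rpl28 77.0 ± 6.08 FPKM (SD, n = 3), both on the chromosome of the RefSeq gene. Main forms at a mean of at least 10 FPKM numbered 75 of 76, the exception being Rpl36. In all, 5 member rows overlapped another row of the rat tables, among them Rpl35, Rpl30, Rps25 and Rps4y2. The use of strand in counting is not stated, so their reads cannot be told apart from those of the overlapping row.

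Paralogs were mostly far below their main forms, with a single exception. The design cannot reach p = 0.05 over 3 libraries: an exact two-sided sign-flip permutation test gave p = 0.25 for each of the 5 pairs, the smallest it can give, and also after adjustment over the 5. For Rpl36al the order was reversed. The paralog on chromosome 6 (91135709 to 91137104) had 274, 274 and 317 FPKM in rat 1, rat 2 and rat 3, against 151, 148 and 155 FPKM for the X-linked main form Rpl36a (122041846 to 122044560). Rpl36al was higher in 3 of 3 rat libraries without overlap, at 1.90 ± 0.123 times Rpl36a (SD, n = 3), and made up 64.4% to 67.1% of the FPKM of the pair.

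The other 4 pairs ran the opposite way in each rat. Rpl7l1, whose product is known in humans from assembly of the large subunit, had 26.3, 26.5 and 26.4 FPKM against 211, 203 and 218 FPKM for Rpl7, a ratio of 0.125 ± 0.00472 (SD, n = 3). Rpl22l1, which Rpl22 is known to repress in mouse, had 9.50, 10.2 and 9.77 FPKM against 248, 250 and 270 FPKM for Rpl22, a ratio of 0.0384 ± 0.00231. Neither paralog overlapped with its main form. Rpl10l, the autosomal counterpart of X-linked Rpl10 and best known from the testis, had 12.5, 11.6 and 1.46 FPKM against 473, 445 and 480 FPKM for Rpl10. Rat 3 stood apart: the Rpl10l share of the pair was 2.57%, 2.54% and 0.303% in rat 1, rat 2 and rat 3. Rpl3l, a form of striated muscle, was listed at 0 in rat 1 and rat 2 and at 0.0422 FPKM in rat 3, against 213, 189 and 233 FPKM for Rpl3. How far reads of a main form were assigned to its paralog was not tested.

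The start windows of the paralogs and main forms are given in pairs, as above, since the pairs differ in level. RefSeq gives Rpl10l and Rpl36al under other symbols, and Rpl7 was without a promoter window. Rpl10 and Rpl22 begin with C and a run of pyrimidines. Their paralogs and Rpl36al begin with a purine, and in Rpl3 and Rpl36a the pattern is not met at the annotated base.
Rpl10l (RefSeq Rpl10l1), chr6:90281968-90282017, minus strand: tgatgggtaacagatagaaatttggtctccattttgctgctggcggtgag
Rpl10, chrX:157205815-157205864, plus strand: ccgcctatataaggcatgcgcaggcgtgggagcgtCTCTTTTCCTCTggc
Rpl22l1, chr2:113683161-113683210, plus strand: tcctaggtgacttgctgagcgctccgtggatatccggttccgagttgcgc
Rpl22, chr5:168117926-168117975, plus strand: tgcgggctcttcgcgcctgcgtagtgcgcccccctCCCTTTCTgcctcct
Rpl36al (RefSeq Rpl36al1), chr6:93392244-93392293, minus strand: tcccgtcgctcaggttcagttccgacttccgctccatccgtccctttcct
Rpl36a, chrX:102059414-102059463, plus strand: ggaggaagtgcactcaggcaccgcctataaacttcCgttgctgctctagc
Rpl3l, chr10:14258411-14258460, plus strand: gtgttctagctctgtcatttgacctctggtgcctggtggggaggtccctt
Rpl3, chr7:113507976-113508025, minus strand: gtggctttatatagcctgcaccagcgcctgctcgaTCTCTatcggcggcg
Rpl7l1, chr9:21695683-21695732, plus strand: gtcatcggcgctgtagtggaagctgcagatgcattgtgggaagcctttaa

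**Figure D3:**
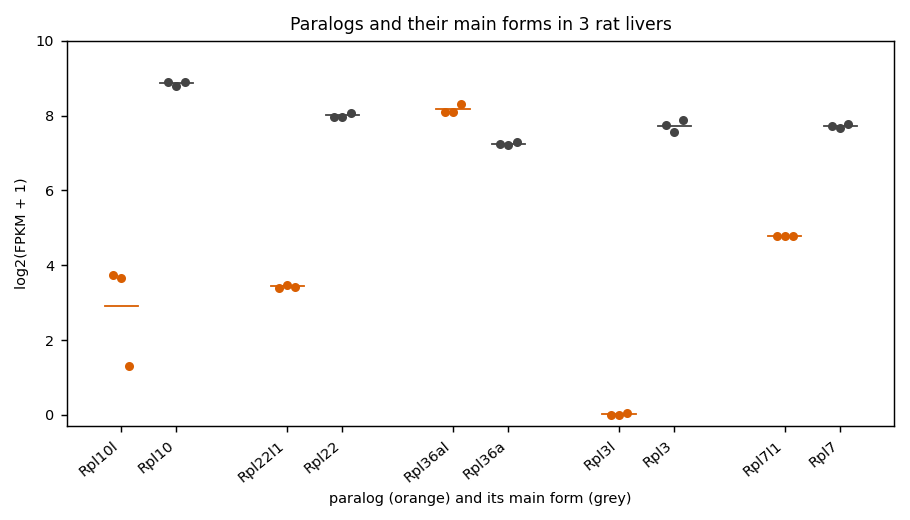
Levels of 5 paralogs (orange) and, to the right of each, its main form (grey) in 3 rat liver libraries, as log2(FPKM + 1). Points are rat 1, rat 2 and rat 3 from left to right, and lines are means. Rpl36al lies above Rpl36a, and the other 4 paralogs lie below their main forms.

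The 2 other matches were low. Rps4y2, named after a Y-linked form of S4, lies on chromosome 4 in the deposited tables and had 4.46, 4.67 and 3.36 FPKM, 0.316 ± 0.0534 times the Rps4x row (SD, n = 3). Rps19bp1, which encodes a protein that binds Rps19 and is no ribosomal protein, had 7.71, 6.99 and 6.48 FPKM. Neither reached 10 FPKM, and of the 5 paralogs 2 did.

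Rat 2 was low for most members. Over the 81 rows that averaged 1 FPKM or more, rat 2 gave the lowest of the 3 values in 51 rows (63.0%), against 22.6% of all 9994 rat rows at that level and 29.6% of 71 mitochondrial ribosomal protein rows. The median difference on log2(FPKM + 1) was -0.09 for rat 2 minus rat 1 and -0.10 for rat 2 minus rat 3 over the members. Over all rows the same medians were 0.11 and 0.05, and over mitochondrial ribosomal proteins 0.09 and -0.0014. The rats were then scaled by their median ratio over rows of at least 1 FPKM in all 3. After this, rat 2 was lowest in 63 of 81 members (77.8%), with a median of -0.21 for rat 2 minus rat 1. It was lowest in 34.5% of all rows, 41.5% of rows at 100 FPKM or more and 47.9% of mitochondrial ribosomal proteins. With that scaling rat 2 was also lowest in 13 of 19 ribosome biogenesis factors (68.4%) and 9 of 13 other TOP mRNAs (69.2%). It was lowest in only 3 of 10 genes for control of ribosomal protein mRNAs (30%), where 6 were lowest in rat 3. As deposited, both subunits showed low values in rat 2: it was below both other rats in 18 of 30 small-subunit and 32 of 45 large-subunit main forms. These differences are between single libraries of 1 group and carry no test.

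Some other measures moved with rat 2, and others did not. Rat 2 had the lowest FPKM total (527133) and the lowest depth of the 3 by the step of low values (0.937 times rat 3). The summed level of 6 stellate or fibroblast markers was 34.6, 23.1 and 34.8 FPKM in rat 1, rat 2 and rat 3. Of these, 5 of 6 had a mean of at least 1 FPKM and none was at 0. The other marker sums were not lowest in rat 2. In the same order, Kupffer cell or macrophage markers summed to 228, 236 and 311 FPKM. Sinusoidal endothelium markers summed to 56.8, 51.5 and 49.1 FPKM, and lymphocyte markers to 2.56, 4.09 and 4.68 FPKM. The erythroid marker Hbb had 54.4, 357 and 348 FPKM. Of hepatocyte markers with 3 values, only Tat was lowest in rat 2 (1023, 429 and 1221 FPKM). The part of these in the low values was not tested.

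**Figure D4:**
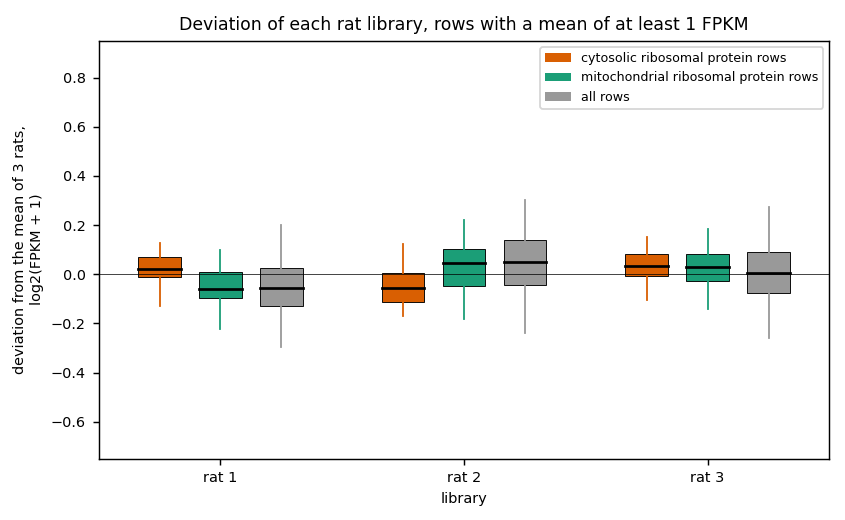
Deviation of each rat library from the mean of the 3 rats on log2(FPKM + 1), for 81 cytosolic ribosomal protein rows (orange), 71 mitochondrial ribosomal protein rows (green) and all 9994 rows (grey) with a mean of at least 1 FPKM. Bars span the quartiles with the median as a black line, and thin lines run from the 5th to the 95th percentile. The median of the cytosolic rows is -0.06 in rat 2, where that of all rows is 0.05.

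The median SD of log2(FPKM + 1) over 3 rats was 0.09 for members, against 0.14 for all rows and 0.10 for mitochondrial ribosomal proteins. This depended on scaling, since with median-ratio scaling it was 0.13 for both members and all rows and 0.10 for mitochondrial ribosomal proteins, which then lay below the members. Without rat 2 it was 0.05 for members and 0.10 for all rows. Of the main forms, Rps23, at the decoding site, varied most, with 223, 238 and 321 FPKM in rat 1, rat 2 and rat 3. Rpl30 had 206, 154 and 214 FPKM, and Rpl18 203, 156 and 201 FPKM, with rat 2 low in both. Rpl9 and Rpl37a, from rows on another chromosome, came next. The least variable were Rps4x, Rpl21, Rps15 (318, 311 and 318 FPKM), Rpl19 (417, 417 and 406 FPKM) and Rps7 (268, 266 and 275 FPKM).

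Genes that work with the ribosomal proteins were expressed at varied levels in rat. Of 5 names for ribosomal proteins that the name rule does not catch, 4 were found. Fau, whose product carries a ubiquitin-like part joined to a ribosomal protein, had 550, 553 and 593 FPKM, and Rpsa 323, 303 and 349 FPKM. Gnb2l1, the scaffold also called Rack1, was lower at 92.8, 84.5 and 88.2 FPKM. Rpsa and Gnb2l1 were lowest in rat 2, and Fau in rat 1. Of 25 ribosome biogenesis factors 19 were in the rat tables, 10 of them at 10 FPKM or more, with a median of 11.6 FPKM. Nucleolin (Ncl) led with 138, 130 and 133 FPKM. Polr1a, the catalytic subunit of the polymerase for ribosomal RNA, had 3.93, 2.66 and 2.98 FPKM. Of the 19, 8 were lowest in rat 2 and 8 in rat 3.

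All 10 genes listed for control of ribosomal protein mRNAs were in the tables, with a median of 13.3 FPKM. Larp1, which holds TOP mRNAs back, had 32.1, 34.8 and 31.5 FPKM. Mtor had 5.62, 6.34 and 5.08 FPKM, and Eif4ebp1, an inhibitor of cap-dependent initiation, 32.0, 31.3 and 32.3 FPKM. The kinases Rps6kb1 and Rps6kb2 had means of 12.5 and 14.0 FPKM. Among 13 other mRNAs with a TOP start the median was 77.1 FPKM, led by the elongation factor Eef1a1 (1663, 1459 and 1564 FPKM), and 6 of the 13 were lowest in rat 2.

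The species could be compared for 4 members, RPS15A, RPL34, RPL12 and RPS24, and each had lower values in naked mole rat. The median ratio over the symbols in both species' tables set the scale of each library, and limma tested log2(scaled FPKM + 1) over 288 symbols with Benjamini-Hochberg adjustment. Symbols counted as called when the adjusted p was below 0.05 and the means differed by 1 or more on the log2 scale. By that rule 4 of 4 members were called lower in naked mole rat, against 41.0% of all symbols tested called lower, 32.6% called higher and 73.6% called in either direction. All 4 passed the filter on low values through the rat libraries alone, so the direction of a call was fixed for them and the count is a description, with no support drawn from it. Scaling to the same total gave 108 symbols lower and 169 higher of 358 tested, where the reported split was 118 lower and 94 higher of 288, and all 4 members were lower in both. The median log2 difference of the members was -6.81, with -0.40 for all symbols. The low values in naked mole rat are near 0, so no fold is given and the log2 differences depend on the pseudocount of 1.

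RPS15A, of the small subunit, had scaled values of 0.179, 0 and 0.0491 in naked mole rat 1, 2 and 3, against 258, 200 and 236 in rat 1, 2 and 3. Its log2 difference was -7.75 (SE 0.130; limma adjusted p = 3.19e-09). For all 4 symbols the filter fixed the direction, so the p-values here are description and no support is drawn from them. RPL34, of the large subunit, was listed at 0, 0 and 0.0882 in naked mole rat, against 119, 84.6 and 110 in rat (limma adjusted p = 8.16e-09). RPL12 and RPS24 were listed at 0 in each naked mole rat library. In rat, RPL12 had 19.8, 13.9 and 16.8 and RPS24 139, 117 and 115 (limma adjusted p = 5.06e-08 and 2.53e-09). With naked mole rat values at or near 0, the filter also fixed that the species would not overlap in these 4.

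The rows behind these values were unlike in extent. In naked mole rat, RPS15A covered 2510609 bp (scaffold147, 33041148 to 35551757) and RPL34 2345419 bp (scaffold205, 8123001 to 10468420), against 5889 and 3732 bp in rat, and the RPL34 row overlapped a row named C6orf167. The RPS24 row spanned 342 bp (4588 bp in rat) and the RPL12 row 450 bp (498 bp in rat). The rat RPL12 row is itself among those on another chromosome than the RefSeq gene. Ribosomal proteins are needed by every cell, so a 0 says only how the row is listed. Species, genome and annotation cannot be told apart. Of the companion lists, 3 symbols were tested and each was called lower in naked mole rat, against the 41.0% of all symbols given above: NHP2, of a ribosomal RNA modifying particle (means of 0.760 against 16.9 in rat), RRN3, an initiation factor of ribosomal RNA synthesis (1.76 against 4.66), and TPT1, a TOP mRNA listed at 0 in each naked mole rat library (mean 996 in rat). The limma adjusted p was 1.56e-05, 0.000242 and 9.63e-10 for NHP2, RRN3 and TPT1. TPT1 passed the filter through the rat libraries alone, so its direction was fixed. NHP2, at a naked mole rat mean of 0.760, could not have passed without the rat libraries, so its p-value is likewise description. No support is drawn from the count of 3. The hepatocyte marker APOH, 1 of 12 on its list in the tables, was lower too (mean 50.9 against 3193 in rat; limma adjusted p = 1.1e-07), while the erythroid marker HBB was not called (68.4 against 229 in rat; limma adjusted p = 0.0843). The part of either in the result was not tested. No mitochondrial ribosomal protein was in the naked mole rat tables used here.

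**Figure D5:**
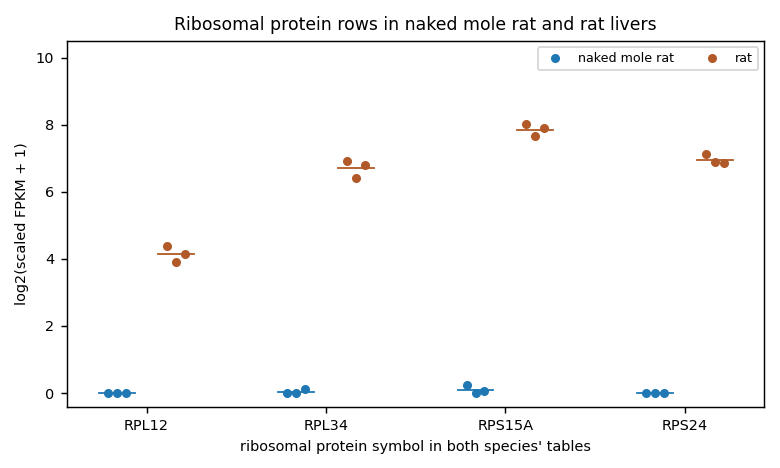
Scaled level of the 4 ribosomal protein symbols present in the tables of both species, as log2(scaled FPKM + 1), for 3 naked mole rat libraries (blue, left) and 3 rat libraries (brown, right) of each symbol. Points are libraries 1 to 3 from left to right and lines are means. Naked mole rat values lie at or near 0, and rat values between 13.9 and 258 scaled FPKM.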

How the data were processed

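Liver RNA in 3 naked mole rat and 3 rat libraries was analysed from gene tables of FPKM values, which the authors deposited, 1 per library, with the columns of a Cufflinks table per the file headers. Per the submitters' processing notes, the tools were Picard 1.137, Cufflinks 2.1.1, TopHat2 2.0.9 and Bowtie2 2.1.0. The genome build and annotation were not given in the sources used here. Coordinates are as deposited. Values with the status HIDATA were treated as missing. FPKM holds no counts, so no counting interval was computed. The median SD between rat libraries on the log2 scale measures precision.

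Members, lists and markers were chosen with earlier results of these data known. Named genes were those in the naked mole rat tables, every paralog with its main form, every other match, the 10 highest and 10 lowest main forms, main forms listed at 0, the 5 most and 5 least variable, the stalk proteins, Rps6, Rpl5 and Rpl11. A few genes that fall under these rules are not reported here. Rat levels were described by library. Species were compared with limma 3.58.1 in R 4.3.3, naked mole rat minus rat, on the 288 of 388 shared symbols that reached 1 scaled FPKM in 3 or more libraries, and the step was tested on simulated data. Alternatives varied scaling, pseudocount, filter, trend, rows, threshold, replicate block and libraries. Symbols were matched to RefSeq GRCr8 for chromosome and start sequences, with a synonym for 2 of them.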

Additional observations from a re-analysis of the deposited data

How the results depend on the processing

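Each of the 4 ribosomal protein symbols was called lower in naked mole rat under all 10 alternative settings and without each library in turn. Their naked mole rat values were at or near 0, so this direction was fixed and no support is drawn from it. Scaling to the same total called 169 symbols higher (94 as reported) and gave a median log2 difference over all symbols of 0.77 (-0.40 as reported). With a threshold of 1 FPKM in place of 10, 4 paralogs and 2 other matches passed, against 2 and 0, and with 100 FPKM 1 paralog did. The members' share was 5.10% of the total without the 10 highest rows (3.89% as reported). With 1 added to both values, the ratio was 0.0422 for Rpl22l1 (0.0384) and 0.00480 for Rpl3l (6.04e-05). Median-ratio scaling gave -0.21 for rat 2 minus rat 1 (-0.09). None of the other 160 alternative values reversed, and counts among them stayed within 1.5 times the reported count. Of those counts, paralogs at 10 FPKM or more were 3 without rat 3 (2 as reported), where Rpl10l passed, and main forms were 63 at 100 FPKM (75 at 10 FPKM). The cause of these moves was not tested. Depth is unknown, so values near 0 carry no limit. The replicate block gave 4 calls too, and the numbers showed no sign of pairing the samples, with correlations of deviations of -0.04, -0.09 and -0.04 for the same-numbered libraries; no library correlated best with its own number.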
